A study of Mus musculus with 28 samples.

Results

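Complement components and complement receptors were measured by 15 of the 648 assays of a quantitative PCR panel, covering 14 of its 584 genes. They are all assays whose gene symbol is C followed by a digit, plus Cr2: C1qa, C1qb, C1qc, C1rl, C1s, C2, C3, C3ar1 with 2 assays, C6, C8a, C8b, C8g, C9 and Cr2. The samples were 28 microporous polycaprolactone (PCL) scaffolds, each from a different female BALB/c mouse, which fill with host immune, stromal and epithelial cells and are called a synthetic niche in the labels. Of these mice, 14 were labelled tumor-bearing, inoculated with 4T1-luc2-tdTomato cells, a marked mouse mammary carcinoma line, and 14 were labelled healthy at the time of analysis. The scaffolds were taken on day 7 (3 healthy and 3 tumor-bearing mice), day 14 (8 and 8) and day 21 (3 and 3) after inoculation. The labels list the tumor line and the days after inoculation for the healthy mice as well, which carried the same implant and served as time-matched controls. Mice are numbered 1 to 28 through all groups, in the order healthy then tumor-bearing at each day: 1 to 3 and 4 to 6 at day 7, 7 to 14 and 15 to 22 at day 14, 23 to 25 and 26 to 28 at day 21.

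Complement is a cascade of plasma and cell-bound proteins. The classical pathway begins when C1q, built from the chains of C1qa, C1qb and C1qc, binds antibody or altered surfaces, C1r activates C1s, and C1s cuts C4 and C2; all pathways meet at C3, whose fragments are read by receptors such as C3ar1 on myeloid cells and Cr2 on B cells and follicular dendritic cells, and end in the pore built from C5b, C6, C7, C8 and C9. The liver makes most of the circulating proteins, whereas C1q is made mainly by macrophages and dendritic cells.

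Levels are given as log2 relative quantity, the number of PCR cycles by which an assay ran ahead of (positive) or behind (negative) the mean of 5 reference genes in the same sample; 1 unit is a doubling. The sequences shown here are the promoters of the C1q chains that were abundant in the scaffold and of the C8 chains that were hardly found, to set beside their levels. Each is the 250 bases before the RefSeq start of the gene on GRCm38.p6, on the gene's strand; RefSeq promoter entries were matched for 12 of the 14 genes, C1qa and C2 having none in the table used. C1qb lies at chr4:136886201-136886450 and C1qc at chr4:136892915-136893164, both on the minus strand, C8a at chr4:104876399-104876648 on the minus strand and C8b at chr4:104766067-104766316 on the plus strand. Capitals mark, on either strand, the motif GAGGAA bound by factors of the ETS family, the half-site TGCTGA bound by MAF factors and the half-site GTTAAT bound by HNF1. These textbook motifs were picked after the levels had been seen.
C1qb: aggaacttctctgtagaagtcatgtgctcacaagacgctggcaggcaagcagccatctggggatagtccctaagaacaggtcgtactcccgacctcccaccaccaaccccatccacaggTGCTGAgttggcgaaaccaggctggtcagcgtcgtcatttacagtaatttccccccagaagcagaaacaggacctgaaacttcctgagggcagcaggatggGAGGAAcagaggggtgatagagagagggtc
C1qc: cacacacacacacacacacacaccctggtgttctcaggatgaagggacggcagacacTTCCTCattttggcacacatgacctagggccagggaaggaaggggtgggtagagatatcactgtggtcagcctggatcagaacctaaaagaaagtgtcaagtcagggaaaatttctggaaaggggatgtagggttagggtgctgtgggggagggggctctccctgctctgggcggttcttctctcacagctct
C8a: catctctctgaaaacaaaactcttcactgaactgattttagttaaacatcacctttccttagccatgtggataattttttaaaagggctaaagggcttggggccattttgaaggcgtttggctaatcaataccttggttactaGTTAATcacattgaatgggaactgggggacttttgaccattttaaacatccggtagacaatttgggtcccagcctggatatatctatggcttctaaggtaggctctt
C8b: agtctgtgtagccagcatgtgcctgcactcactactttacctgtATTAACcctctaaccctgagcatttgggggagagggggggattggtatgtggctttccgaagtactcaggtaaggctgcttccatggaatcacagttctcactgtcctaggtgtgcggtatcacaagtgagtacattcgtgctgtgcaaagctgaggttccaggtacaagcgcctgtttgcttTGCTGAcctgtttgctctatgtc
GAGGAA was found in 2 of the 12 genes, C1qb and C1qc, against 23.3% of 32851 promoter windows of the same length. It was absent from the windows of C3 and C3ar1, which were abundant too. GTTAAT was found in 3 of the 12, C8a, C8b and Cr2, against 6.43% of all windows. It was absent from the window of C9, which was hardly found either. TGCTGA was found in 5 of the 12, C1qb, C1rl, C3, C3ar1 and C8b, so on both sides of the contrast in level, against 16.1% of all windows. No match overlapped another. A match describes the letters and not a bound site.

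The C1q chains, C3 and its receptor C3ar1 were the abundant complement transcripts of the scaffold, while the terminal components were low or not found. Ranked by mean level over the 577 assays with a value in at least 14 samples, C3ar1 took ranks 25 and 38 with its 2 assays, C1qa rank 31, C3 rank 37, C1qb rank 54 and C1qc rank 55. C1s, the protease that cuts C4 and C2, followed at rank 96. C2, which with C4 gives the classical C3 convertase, was at rank 289, C1rl, a protease related to C1r, at rank 414, and C6 at rank 437. C8g, the small chain of C8, was at rank 520 and Cr2 at rank 562. Assays are not calibrated against each other: for the 36 genes of the panel with 2 assays, these differed by a median of 0.41 and at most 4.15 log2 units. Neighbours in the order that lie within such a distance, such as C1qb and C1qc or C1qa and C3, are therefore not ordered here.

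Over all 28 scaffolds C1qa averaged 1.5 ± 0.64 (SD, n = 28), C1qb 0.54 ± 0.63 (SD, n = 27) and C1qc 0.50 ± 0.59 (SD, n = 28) log2 units. C3 averaged 1.31 ± 0.37, and C1s lay closest to the reference genes with -0.16 ± 0.21, the smallest spread among the assays. C1s was read by an assay of the type that may also take up closely related genes, and its RefSeq transcripts belong to C1s1. C2 averaged -3.29 ± 0.33 and C1rl -5.65 ± 0.31. C6 averaged -6.34 ± 0.86 (n = 26), C8g -8.96 ± 0.81 and Cr2 -11.02 ± 1.19 (n = 25).

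**Figure D1:**
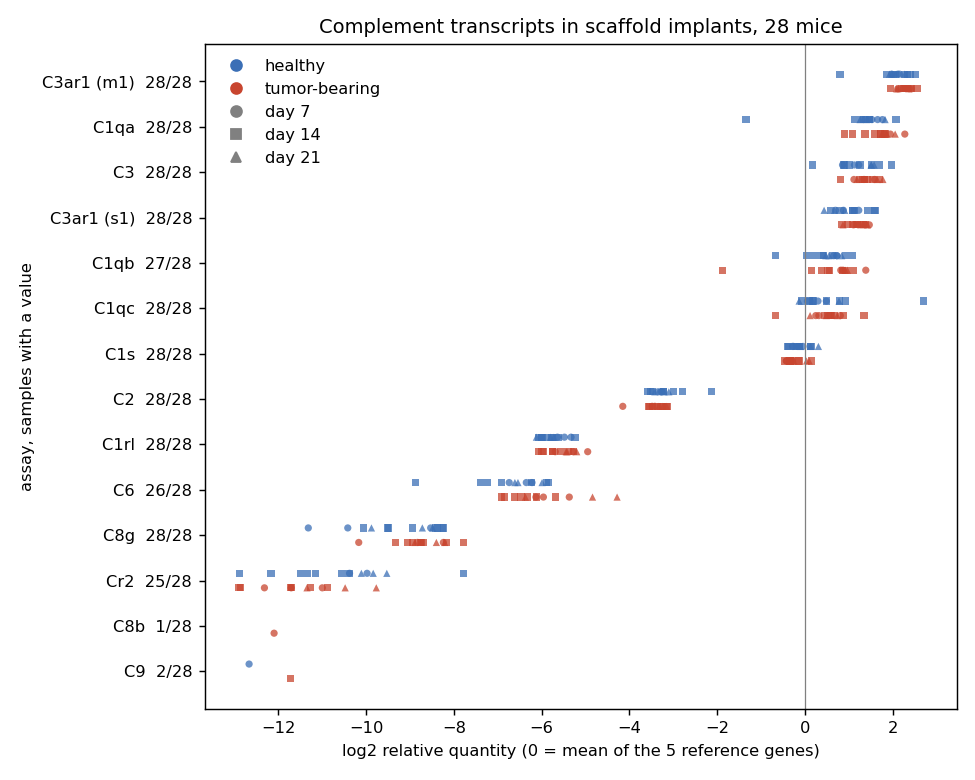
Log2 relative quantity (x axis; 0 is the mean of the 5 reference genes) of each complement assay with at least 1 value, 1 point per mouse, blue for healthy and red for tumor-bearing, the marker giving the day; the number of samples with a value stands beside each name. The C1q chains, C3, C3ar1 and C1s lie around or above 0 in nearly every mouse, Cr2 averages -11.02, and C8b and C9 have 1 and 2 points.

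The pore-forming genes split sharply in detection. C8g gave a quantification cycle (Cq, the PCR cycle of first detection) in all 28 scaffolds, with a median Cq of 27.3. C8a, which encodes the alpha chain of the same protein, gave none in 28, which allows a share of detected scaffolds of up to 10.7% (3 counts of 28, counting error only). The exact 95% interval for this share reaches 12.3%. C8b, the beta chain, was read once, in tumor-bearing mouse 4 at day 7 (-12.10). C9, the pore's repeating unit, was read in healthy mouse 3 at day 7 (-12.67) and tumor-bearing mouse 16 at day 14 (-11.72). C8g was read by an assay of the g1 type, whereas C8a, C8b and C9 were read by assays of the m1 type. Whether genomic DNA added to the C8g readings was not tested. With only a Cq of 30 or less counted, C8b and C9 had no detection and Cr2 15 of 28, 9 in healthy and 6 in tumor-bearing mice. Cr2, which binds C3d and lowers the threshold of B cell activation, had a value in 13 of 14 healthy and 12 of 14 tumor-bearing mice, and C6 in 13 and 13. Fisher's exact test, two-sided, gave p = 1 for tumor-bearing against healthy in each of the 5 assays that some but not all scaffolds detected. In each of them at most 3 scaffolds differed from the rest in detection. With so few, the test could not have reached a low p, and it does not show equal detection. Of 3 measured hepatocyte genes, Apcs had no value in any scaffold, and the summed relative quantity of Apcs, Apoa1 and Crp ran from 0 to 0.0212 with missing reactions counted as 0. Cr2 was itself the only gene of the B cell list on the panel, so that other B cell markers were not measured.

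The readings of the 3 C1q chains were set against each other within each mouse; offsets between their assays give no order of the chains. C1qa minus C1qc had a median of 1.15 log2 units (SD 0.72), and 2 of 28 mice, healthy mice 7 and 13, lay more than 1 unit from it. C1qa minus C1qb had a median of 0.93 (SD 0.78), with 3 of 27 mice, 10, 13 and 15, more than 1 unit away. C1qb minus C1qc had a median of 0.25 (SD 0.87), with mice 7, 10 and 15 more than 1 unit away.

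All 4 of these mice were from day 14. Healthy mouse 13 read -1.34 for C1qa, where the other 7 healthy mice of that day lay between 1.13 and 2.08, while its C1qb was 0.39, near the middle of its group, and its C1qc was -0.07, the lowest of its group, whose next value was 0.11. Tumor-bearing mouse 15 read -1.88 for C1qb, where the others lay between 0.16 and 1.11, while its C1qa was 1.72 and its C1qc 1.35, the highest of its group. Healthy mouse 7 read 2.70 for C1qc, where the others lay between -0.07 and 0.92, and its C1qa was 1.47. Healthy mouse 10 read -0.67 for C1qb, where the others lay between 0.03 and 1.09, and its C1qa was 1.30 and its C1qc 0.20. Mouse 13 also read 0.80 for the C3ar1 assay Mm01184110_m1, below the 1.86 to 2.53 of the other healthy mice of that day, and had a value for 475 assays, the fewest of any sample; tumor-bearing mouse 21 had 489 and the rest 535 to 587. The part of the far readings of mice 7, 13 and 15 in the day 14 results was measured by leaving them out, as given beside those results. The C1qb reading of mouse 10 was left out only where single mice were left out.

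**Figure D2:**
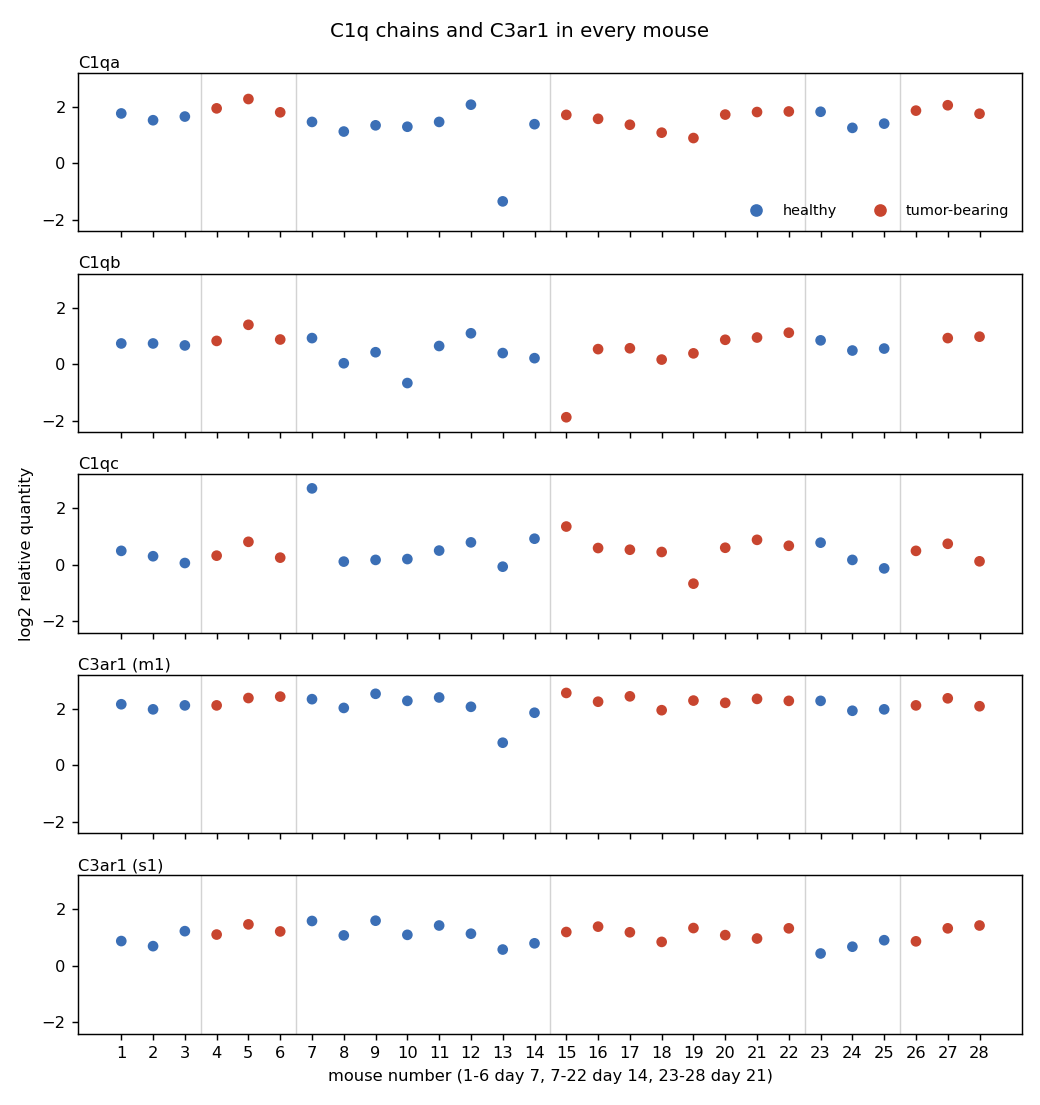
Log2 relative quantity (y axis) of C1qa, C1qb, C1qc and both C3ar1 assays in each of the 28 mice (x axis, mouse number), blue for healthy and red for tumor-bearing, grey lines parting the 6 groups. Single low or high readings stand out at mouse 13 (C1qa -1.34), mouse 15 (C1qb -1.88) and mouse 7 (C1qc 2.70).

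The main question was whether the tumor, growing elsewhere in the body, was reflected in complement transcripts of the implant. No complement assay passed the threshold, an adjusted p under 0.05 in limma's moderated test over all assays, at any day or for the mean of the days. At day 7, 0 of 12 tested assays passed (0% of 565 assays overall), at day 14, 0 of 12 (2.38% of 588), at day 21, 0 of 12 (1.22% of 573), and for the mean of the days, 0 of 12 (2.5% of 559). C8a, C8b and C9 had too few values to be tested. At an unadjusted p under 0.05 the complement counts were 0, 0, 3 and 4 of 12, against 2.12%, 10.5%, 9.08% and 8.77% of all assays. Estimates are tumor-bearing minus healthy in log2 units with their standard error (SE), from a fit in which the panel is a random block. In whole scaffolds, more cells of a type and more RNA per cell cannot be told apart.

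The median complement estimate was 0.25 at day 7 (all assays 0.03), 0.06 at day 14 (-0.08), 0.26 at day 21 (0.00) and 0.21 for the mean of the days (-0.05). For the mean of the days 9 of 12 estimates were above 0 (41.7% of all assays), those below 0 being C1s, C2 and Cr2. The 7 measured macrophage and monocyte markers Apoe, Ccr2, Cd14, Cd163, Cx3cr1, Itgam and Mrc1 had median estimates of 0.21, 0.09, 0.39 and 0.19 in the same comparisons, none past the threshold. Their summed relative quantity, with missing reactions counted as 0, had a median of 26.2 in healthy and 33.0 in tumor-bearing mice at day 7, 29.1 and 32.2 at day 14, and 36.7 and 44.0 at day 21. Its range at day 7 was 6.01 to 27.2 and 25.6 to 34.3, healthy before tumor-bearing. In the same order it was 17.7 to 40.7 and 11.1 to 41.5 at day 14. At day 21 it was 35.9 to 42.7 and 35.1 to 70.6. Most of this sum was Apoe, whose geometric mean ratio was between 21.1 and 41.7 in every group, where Mrc1 reached at most 2.85. Apoe had a value in only 2 of the 3 healthy day 7 mice. The sum of 6.01 therefore lacks Apoe, and this gap may also lower the healthy median of that day. The sums are thus mainly readings of Apoe and do not show a difference in macrophages. Of the neutrophil markers, 10 of 10 tested assays passed as higher at day 14 (median 2.14) and 5 of 11 at day 21 (median 1.76). Over all assays, 10 of 588 passed as higher at day 14 and 6 of 573 at day 21. The neutrophil list was chosen with earlier results of these data known, so its counts are not an independent comparison. The summed level of the 10 neutrophil genes ran from 0.441 to 2.19 and 1.23 to 9.99 at day 14, and from 3.02 to 4.82 and 8.10 to 14.9 at day 21, healthy before tumor-bearing, with no gene of the list at 0 throughout. The part of cell makeup in the complement values was not tested.

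**Figure D3:**
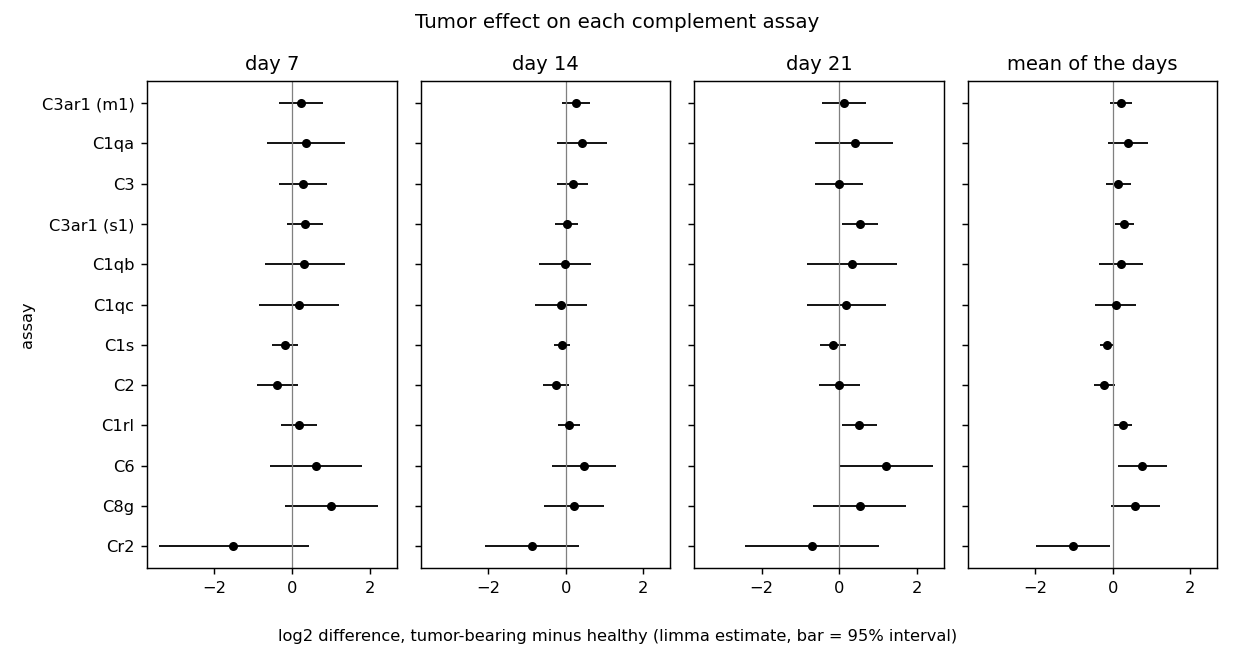
Tumor-bearing minus healthy log2 difference (x axis; point, limma estimate; bar, 95% interval) for the 12 tested complement assays (y axis, ordered by level) at days 7, 14 and 21 and as the mean of the days. Most points lie right of 0, C1s, C2, Cr2 and, at day 14, C1qb and C1qc lie left of or at 0, as does C3 at day 21, and the intervals that leave out 0 (C1rl, C3ar1 s1 and C6 at day 21, with Cr2 as well for the mean of the days) belong to assays with an adjusted p of 0.355 or more.

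At day 7, 4 of the 11 complement assays with a value in every mouse had groups that did not overlap, C1qa, C1qb and C6 higher and C2 lower in tumor-bearing mice (7.88% of 520 such assays overall). C1qa read 1.77, 1.53 and 1.66 in the healthy mice and 1.95, 2.28 and 1.81 in the tumor-bearing mice. C1qb read 0.73, 0.73 and 0.66 against 0.82, 1.39 and 0.87. In both chains tumor-bearing mouse 5 was the highest and the gap between the groups was small. C6 read -6.22, -6.74 and -6.35 in healthy and -5.37, -6.13 and -5.96 in tumor-bearing mice. C2 read -3.35, -3.26 and -3.29 in healthy and -3.42, -4.15 and -3.48 in tumor-bearing mice, mouse 5 again the farthest from the controls. The estimates were 0.36 ± 0.49 for C1qa, 0.32 ± 0.50 for C1qb, 0.61 ± 0.57 for C6 and -0.38 ± 0.26 for C2 (SE), each with an adjusted p of 0.997.

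The lowest p at day 7 was that of C8g, at -11.32, -10.42 and -8.53 in healthy and -10.17, -8.83 and -8.24 in tumor-bearing mice. Its groups overlapped, and the estimate was 1.01 ± 0.58 (unadjusted p = 0.0927, limma), running from 0.43 without healthy mouse 1 to 1.77 without healthy mouse 3 as single mice were left out. Cr2 read -10.38 and -9.98 in healthy mice 1 and 2, with no value in mouse 3, and -12.32, -11.00 and -11.71 in tumor-bearing mice. Its estimate of -1.51 ± 0.93 (adjusted p = 0.997) turned to 2.19 when the missing reaction was set to the largest Cq of the data, so its direction rests on how that reaction is treated. C1qc, C1rl, C1s, C3 and both C3ar1 assays had overlapping groups and estimates from -0.18 to 0.33.

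At day 14, with 8 mice per condition, no complement assay had groups that did not overlap, nor did any of the 355 complete assays of the panel (0%). C3ar1, the receptor for C3a, had the lowest p: with assay Mm01184110_m1 the lowest, median and highest values were 0.80, 2.18 and 2.53 in healthy and 1.95, 2.28 and 2.56 in tumor-bearing mice. The estimate was 0.28 ± 0.18 (adjusted p = 0.618), and 0.07 ± 0.12 without healthy mouse 13 and tumor-bearing mouse 21. C2 ran from -3.59 to -2.13 (median -3.23) in healthy and from -3.55 to -3.13 (median -3.32) in tumor-bearing mice, with an estimate of -0.24 ± 0.16. Cr2 ran from -12.88 to -7.78 (median -11.24, n = 8) and from -12.90 to -10.88 (median -11.71, n = 6), with an estimate of -0.86 ± 0.58 (adjusted p = 0.650). Healthy mouse 8 held the highest level of Cr2, -7.78, where the next healthy mouse read -10.38. The Cr2 estimate ran from -1.15 to -0.45 as single mice were left out, the latter without mouse 8, was -0.02 without panels D and G, and was -3.49 with missing reactions at the largest Cq.

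The C1q estimates at day 14 followed the single readings described above. C1qa stood at 0.43 ± 0.31 with all mice, at 0.00 ± 0.16 without mice 13 and 21, and at 0.04 ± 0.16 with reactions left out that lay over 1.5 cycles from the group's median. C1qb stood at -0.02 ± 0.32 with all reactions and 0.26 ± 0.20 without those far from their group median, and C1qc at -0.12 ± 0.32 and 0.14 ± 0.22. The lowest adjusted p among these values was 0.596 (limma), and the sign of C1qb and C1qc turned. At day 14, 4 of 8 mice per condition were run on panels that held 1 condition each (panel D healthy, panel G tumor-bearing). On the panels that held both conditions, 4 against 4, C1qa was 0.67 ± 0.50, C3ar1 Mm01184110_m1 0.50 ± 0.24 (adjusted p = 0.452) and C2 -0.40 ± 0.23; on panels D and G they were 0.13 ± 0.17, 0.01 ± 0.18 and -0.04 ± 0.14. The panels with both conditions hold mouse 13. The other 3 healthy mice on them read 1.47, 2.08 and 1.39 for C1qa and the 4 tumor-bearing mice 0.90, 1.73, 1.82 and 1.84, with overlapping ranges.

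At day 21 the 3 members with an unadjusted p under 0.05 were C1rl, C3ar1 and C6. C1rl read -5.72, -5.80 and -6.12 in healthy and -5.20, -5.44 and -5.42 in tumor-bearing mice. It was the 1 of 11 complete complement assays whose groups did not overlap at this day (16.3% of 498 assays overall). Its estimate was 0.52 ± 0.22, which is 1.05- to 1.97-fold at 95% confidence (adjusted p = 0.430, limma). C3ar1 with assay Mm02620006_s1 read 0.44, 0.68 and 0.91 in healthy and 0.87, 1.33 and 1.43 in tumor-bearing mice, the ranges overlapping by mice 25 and 26. The estimate was 0.54 ± 0.22 (adjusted p = 0.430), whereas the other C3ar1 assay gave 0.13 ± 0.27 from 2.28, 1.93 and 1.98 against 2.12, 2.37 and 2.09. C6, which starts the assembly of the pore on C5b, read -6.61, -6.54 and -5.99 in healthy and -6.37, -4.28 and -4.84 in tumor-bearing mice. Mice 27 and 28 were above every healthy mouse and mouse 26 within their range, and the estimate was 1.22 ± 0.57 (adjusted p = 0.533). C3 read 1.52, 1.58 and 1.51 in healthy and 1.65, 1.19 and 1.78 in tumor-bearing mice, an estimate of 0.00 ± 0.30 with a 95% interval from -0.61 to 0.61.

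As the mean of the days, C6 was 0.77 ± 0.30 (adjusted p = 0.355, limma), a fold of 1.10 to 2.63 at 95% confidence. Of the 10 same-day pairs run on 1 panel, 9 had a C6 value in both mice. C6 was higher in the tumor-bearing mouse of all 9. Pair counts here use the same values as the estimates and are no separate support, and their share over all assays was not counted. C3ar1 Mm02620006_s1 was 0.30 ± 0.12 (adjusted p = 0.355) and higher in 7 of 10 pairs, and C1rl 0.26 ± 0.11 (adjusted p = 0.419) and higher in 8 of 10. Cr2 was -1.02 ± 0.46 (adjusted p = 0.467) and higher in the tumor-bearing mouse in 1 of 7 pairs; its reactions came late, with a median Cq of 29.8. The interval of C3 for the mean of the days was -0.16 to 0.47, that of C1s -0.32 to 0.03 and that of C1qa -0.13 to 0.92, so changes of these sizes were not separable from 0 with these numbers of mice. The fold changes in the authors' deposited table for C6, tumor-bearing over healthy, are 1.53 at day 7, 1.40 at day 14 and 2.32 at day 21, and for Cr2 0.355, 0.529 and 0.614.

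Between days, no complement assay passed the threshold within healthy mice, within tumor-bearing mice, or for a difference of the tumor effect between days. The days were run partly on different panels, day 7 on A, B and C and day 21 on C, E and F. Panels D and G held day 14 alone. Day and panel therefore cannot be fully told apart. The percentages of all assays past the threshold were 0% (healthy, day 14 against 7), 0.346% (healthy, 21 against 14), 0% (healthy, 21 against 7), 0.175% (tumor-bearing, 14 against 7), 0% (tumor-bearing, 21 against 14) and 0.529% (tumor-bearing, 21 against 7), and 0% for each of the 3 differences. At an unadjusted p under 0.05 the complement counts were 1, 1, 0, 1, 1 and 0 of 12 in that order, against 12.9%, 15.9%, 10.0%, 8.58%, 10.3% and 8.82% of all assays, and 0 of 12 for each difference, against 3.72% (day 14 minus 7), 5.43% (21 minus 14) and 3.93% (21 minus 7). C8g had the lowest p in healthy mice between days 7 and 14: against its day 7 values above, the 8 healthy mice of day 14 ran from -10.06 to -8.23 (median -8.68). The estimate was 1.24 ± 0.49 (adjusted p = 0.331), and 2.01 (adjusted p = 0.0203) when reactions over 1.5 cycles from the group's median were left out, which removes mouse 3, the highest of the 3 healthy mice of day 7. That call rests on 2 remaining day 7 mice.

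C3ar1 Mm02620006_s1 was -0.47 ± 0.19 at day 21 against day 14 in healthy mice (adjusted p = 0.203), where day 14 ran from 0.58 to 1.60. In tumor-bearing mice C6 was 1.24 ± 0.50 at day 21 against day 14 (adjusted p = 0.317), with day 14 between -6.91 and -5.69 in the 7 mice with a value. C1rl was -0.42 ± 0.19 at day 14 against day 7 in tumor-bearing mice (adjusted p = 0.483), at -4.95, -5.69 and -5.28 on day 7 and between -6.07 and -5.27 on day 14. C1s was 0.34 ± 0.17 at day 21 against day 7 in tumor-bearing mice (adjusted p = 0.531), with -0.28, -0.42 and -0.42 on day 7 and 0.04, -0.25 and 0.10 on day 21. The groups overlapped for C8g, C3ar1, C6 and C1rl and did not for C1s. The share of all assays without overlap was not counted between days. The lowest p among the differences of the tumor effect was that of C3ar1 Mm02620006_s1, day 21 minus day 14, at 0.51 ± 0.27 (adjusted p = 0.745).

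**Figure D4:**
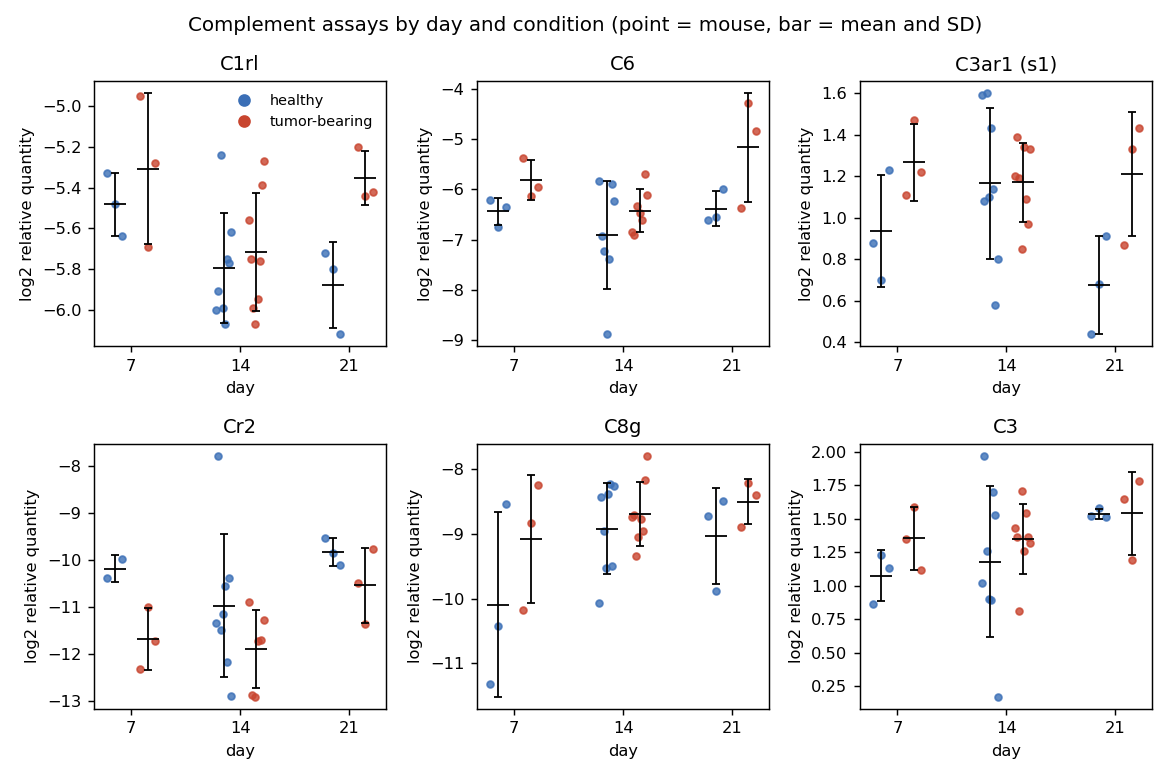
Log2 relative quantity (y axis, a separate scale for each assay) of C1rl, C6, C3ar1 (assay s1), Cr2, C8g and C3 by day (x axis) in healthy (blue) and tumor-bearing (red) mice, 1 point per mouse with the mean and SD as black bars. At day 21 the C1rl groups do not overlap, C6 is above -5 in 2 of 3 tumor-bearing mice, and C3 has the same mean of 1.54 in both groups.

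Across mice, after each group's mean was removed, pairs of complement assays were compared by value and by rank. Among the 10 assays with a value in at least 27 mice, 45 pairs were compared, and 3 had both Pearson's r and Spearman's rho past 0.05 after adjustment over the 45 pairs (two-sided permutation tests with 100000 permutations). The share of passing pairs over the whole panel was not counted, and 1 of the 3 pairs was the 2 assays of a single gene. The 2 assays of C3ar1 gave r = 0.66 (p = 4e-05, adjusted 0.0018) and rho = 0.50 (adjusted p = 0.0477), with r = 0.44 without the 2 mice farthest from the median and 0.55 with panel means removed. C1qa and C3ar1 Mm01184110_m1, both typical of macrophages, gave r = 0.81 (p = 0.00053, adjusted 0.0119) and rho = 0.56 (adjusted p = 0.0259), with r = 0.54 without the 2 farthest mice and 0.85 with panel means removed. C2 and C3ar1 Mm02620006_s1 gave r = -0.55 (p = 0.00208, adjusted 0.0312) and rho = -0.52 (adjusted p = 0.0477), with r = -0.48 without the 2 farthest mice and -0.56 with panel means removed. This pair no longer passed with each sample centred on its median raw Cq, where 2 pairs passed both. By rank alone, 7 of the 45 pairs passed. The strongest was C2 with C3ar1 Mm01184110_m1, rho = -0.66 (adjusted p = 0.00675, permutation) and r = -0.51 (adjusted p = 0.154). C1rl with C2 gave rho = 0.57 (adjusted p = 0.0259) and r = 0.48 (adjusted p = 0.102). Neither of these passed by rank with raw Cq centred. Among the C1q chains, 2 of 3 pairs passed by rank and none by value: C1qa with C1qc gave rho = 0.61 (adjusted p = 0.0178) and r = 0.47 (adjusted p = 0.219), and C1qa with C1qb rho = 0.51 (adjusted p = 0.0477) and r = 0.12 (adjusted p = 0.663), while C1qb with C1qc gave rho = 0.35 (adjusted p = 0.233) and r = 0.07. C1qa and C3ar1 Mm01184110_m1 share the low readings of mouse 13.

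Of a list of 41 other complement, regulator and kinin genes, 21 were on the panel, and none passed the threshold in tumor-bearing against healthy mice at any day (18 tested at day 7, 19 at day 14, 17 at day 21, with 0, 1 and 0 at an unadjusted p under 0.05). Their median estimate was -0.01, -0.21, -0.02 and -0.08 for days 7, 14 and 21 and the mean of the days. Itgb2, the shared chain of the complement receptors CR3 and CR4, and Serping1, the inhibitor of C1r and C1s, had group means of 2.17 to 2.60 and 1.23 to 1.57. Cfp and Cfb, which drive the alternative pathway, had group means of -1.75 to -1.28 and -2.0 to -1.39, and Hc, which encodes C5, -3.95 to -2.93. Cd55, a surface inhibitor of C3 convertases, had the lowest p, with an estimate of -0.41 ± 0.15 at day 14 (adjusted p = 0.243). It passed once the panel was a fixed block (-0.76 ± 0.17, adjusted p = 0.0250) and without panels D and G (-0.76 ± 0.17, adjusted p = 0.0253), and was 0.01 ± 0.17 on panels D and G alone. At day 21 Cd55 was 0.42 ± 0.24 (adjusted p = 0.677), the 1 of 16 complete genes of the list whose groups did not overlap (16.3% of all assays), and the day 21 minus day 14 difference of its tumor effect was 0.83 ± 0.29 (unadjusted p = 0.0079, adjusted 0.564, limma). The next lowest p at day 14 was that of Clu, a fluid-phase inhibitor of the pore, at -0.62 ± 0.32 (adjusted p = 0.520). At day 7 the lowest were F2 (-1.37 ± 0.79) and Itgb2 (0.21 ± 0.15), both with an adjusted p of 0.997. F2 had a value in only 2 of 3 mice of each group. These low levels were -12.07 and -9.65 in healthy and -12.67 and -11.8 in tumor-bearing mice. At day 21 they were Masp2, a protease of the lectin pathway, at -0.68 ± 0.36 (adjusted p = 0.669) and the kinin receptor Bdkrb1 at -0.81 ± 0.46 (adjusted p = 0.677).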

How the data were processed

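RNA from scaffolds was reverse transcribed and measured with the OpenArray Mouse Inflammation Panel of TaqMan assays, 1 sample per mouse, on 7 physical panels (A to G), per the labels' protocols. Raw Cq values were deposited, per the file headers; the software that called them is not given in the sources used here. The authors deposited normalized values as linear ratios, 2 to the power of minus delta Cq. In all 28 samples the normalizer equalled, within 0.001 cycles, the mean Cq of 5 of 16 reference assays. The authors' fold changes have no errors.

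Log2 ratios were analysed here with limma 3.58.1 in R 4.3.3: 6 group means, panel as a random block (correlation 0.054), moderated tests, Benjamini-Hochberg adjustment within each contrast over all tested assays. Tested assays had a value in at least 50% of the samples of 1 group and at least 2 values per group. Missing reactions stayed missing. The fit was tested on simulated data. Alternatives covered blocking, normalization, missing and far reactions, panels and single mice; 3 (6 other reference assays, reactions over 1.5 cycles from the group median, and leaving out mice 13 and 21) were chosen after seeing the data, as was adding C1qb to the correlations. Depth has no counterpart in Cq data, and precision is limited by the number of mice. The members and gene lists were chosen with earlier results of these data known. Every member is named; of the other complement genes the 2 of lowest p per day are named, and the levels of 5 were chosen after seeing them.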

Additional observations from a re-analysis of the deposited data

Results flagged for a closer look

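With 24 complement groups of 4 or more values examined for a sample set apart from the rest, chance alone would be expected to mark about 1 in 20, and 5 were marked, all at day 14. Healthy mouse 13 was far below its group for C1qa (-1.34) and for C3ar1 Mm01184110_m1 (0.80). Tumor-bearing mouse 15 was far below its group for C1qb (-1.88). For C1qc, healthy mouse 7 was far above its group (2.70) and tumor-bearing mouse 19 far below (-0.67). Mouse 13 is the sample with the fewest assays giving a value, 475; mice 7, 15 and 19 had 567, 583 and 586. The part of reaction failure in these readings was not tested.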

How the results depend on the processing

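No complement assay passed the threshold for tumor-bearing against healthy mice under any of the 43 settings in which it could be tested, the smallest adjusted p being 0.0766 (Cr2, mean of the days). The count of members past the threshold went from 0 to 1 for healthy day 14 against day 7 without reactions over 1.5 cycles from their group median (C8g, 2.01), and that of other complement genes at day 14 from 0 to 1 (Cd55) with the panel as a fixed block and without panels D and G. Leaving out 1 mouse at a time, every count of members past the threshold stayed at 0. Estimates that turned sign were small or rested on missing reactions, except C1qa at day 14 (0.43 with all mice), and were as follows. With each missing reaction at the largest Cq: Cr2 day 7 2.19 and its difference day 14 minus day 7 -5.67; C1qb day 14 0.01, day 21 -7.08 and mean of the days -2.25. At day 14, C1qb was 0.24 with the panel as a fixed block and without panels D and G, 0.11 with raw Cq centred, 0.02 with 6 other reference assays and 0.26 without far reactions; C1qc was 0.14 without far reactions, C1s 0.02 with raw Cq centred, C1rl -0.06 and C3ar1 Mm02620006_s1 -0.19 on panels D and G alone, and C1qa 0.00 and C3ar1 Mm02620006_s1 -0.04 without mice 13 and 21. At day 21, C2 was -0.05 with 6 other reference assays and C3 0.06 with raw Cq centred. Leaving out 1 mouse turned C1rl day 7 (0.00 to 0.37), C1qb day 14 (-0.16 to 0.26), C1qc day 14 (-0.28 to 0.14, with mice 13 and 21 left out together included), C3ar1 Mm02620006_s1 day 14 (-0.07 to 0.08), and at day 21 C1qc (-0.01 to 0.44), C2 (-0.08 to 0.07) and C3 (-0.12 to 0.15), while C1qa day 14 ran from 0.00 to 0.57, its lowest value without mice 13 and 21. The cause was not tested. No paired analysis was possible by mouse number, because no number is shared between groups; the panel, which holds 10 same-day pairs, entered as a fixed block in 1 setting. The 3 mice per condition at days 7 and 21 limit those estimates.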
